A study of Mus musculus with 5 samples.

Results

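The regions described here are places where one KLF5 summit stood close to the ends of more than 1 gene. KLF5 belongs to the Krüppel-like factors, which bind DNA through zinc fingers. Its position on the genome was read by chromatin immunoprecipitation followed by sequencing (ChIP-seq) with an antibody to the V5 epitope tag. A summit entered the set where it lay on chromosome 1 to 19, within 1 kb of a start or end of each of 2 or more different protein-coding genes. Of the 45378 peaks of the V5-KLF5 immunoprecipitate, 44760 lay on these chromosomes and 1740 met this rule, which is 3.89% (exact Clopper-Pearson 95% interval 3.71 to 4.07). They made up 14.7% of the 11861 summits within 1 kb of any coding gene end. The 1740 summits fell on 1531 gene pairs, and 2936 coding genes had at least 1 of them. The rule used position alone and neither strength nor sequence, although DNA at gene ends differs in base composition from other DNA.

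The V5-KLF5 cells were mouse embryonic stem (ES) cells of wild-type genotype, derived from C57BL/6J mice (written C57B6/J in the labels), that overexpressed V5-tagged KLF5. They gave an anti-V5 immunoprecipitate, a normal mouse IgG immunoprecipitate and an input library of unprecipitated chromatin. The control without the tag was ES-D3, an established wild-type mouse ES cell line, with an anti-V5 immunoprecipitate and an input. Each of the 5 groups was 1 library. The file header of the untagged control names another ES line than its label does, so which line it is remains uncertain. KLF5 was measured only as an overexpressed protein, and no source used here states which promoter drove it. The 3 immunoprecipitates kept between 21.8 and 24.5 M tags after duplicates were removed. The IgG list held 3 peaks and the untagged list 0, and no control peak overlapped any of the 1740 shared summits or had its summit within 1 kb of one. Intervals of shares and of medians (exact order-statistic intervals) are at 95% and cover counting error only. Because peaks of 1 library are not replicates, no p-value is given for any comparison between sets of peaks.

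Genes are often crowded. Where 2 genes lie head to head on opposite strands, their start sites can share one stretch of promoter DNA, a bidirectional promoter, and such promoters are typical of housekeeping functions such as DNA repair and mitochondrial translation. Where genes follow each other on the same strand, the 3′ end of one lies before the start of the next. Where they meet tail to tail, both 3′ ends converge. KLF and SP proteins bind GC-rich boxes and CACCC boxes, which are common in promoters, through zinc fingers at their C-terminus.

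The stretches that carry the strongest shared summits outside genes are shown first, because they are the DNA that neighbouring genes share. Each is the part of a RefSeq promoter window (250 bases before to 50 after a gene start, GRCm38.p6) that lies outside every protein-coding gene and holds the summit. Capitals mark GGGCGG or GGGTGG on either strand, the letters of the GC box and of the CACCC box. These are the 5 strongest with divergent starts:
Septin10/Sowahc (chr10:59221501-59221750, minus strand): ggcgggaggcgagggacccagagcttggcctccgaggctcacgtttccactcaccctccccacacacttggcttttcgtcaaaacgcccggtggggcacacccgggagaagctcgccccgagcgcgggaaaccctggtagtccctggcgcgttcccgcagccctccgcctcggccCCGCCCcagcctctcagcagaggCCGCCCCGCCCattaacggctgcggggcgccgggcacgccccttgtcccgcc
Ddx42/Ccdc47 (chr11:106216676-106216886, plus strand): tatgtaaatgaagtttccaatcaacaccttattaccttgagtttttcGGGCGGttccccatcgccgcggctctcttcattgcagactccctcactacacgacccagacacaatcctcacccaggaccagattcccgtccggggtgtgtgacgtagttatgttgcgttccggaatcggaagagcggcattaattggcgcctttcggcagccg
Kntc1/Rsrc2 (chr5:123749476-123749691, plus strand): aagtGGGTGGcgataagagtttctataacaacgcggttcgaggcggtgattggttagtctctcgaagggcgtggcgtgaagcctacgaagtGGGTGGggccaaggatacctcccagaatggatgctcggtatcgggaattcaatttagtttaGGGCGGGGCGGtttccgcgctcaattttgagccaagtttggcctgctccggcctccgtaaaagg
Itsn1/Cryzl1 (chr16:91729207-91729309, plus strand): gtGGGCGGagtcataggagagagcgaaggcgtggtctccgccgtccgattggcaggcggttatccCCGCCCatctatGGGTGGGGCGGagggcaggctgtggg
Polr1d/Lnx2 (chr5:147076573-147076714, minus strand): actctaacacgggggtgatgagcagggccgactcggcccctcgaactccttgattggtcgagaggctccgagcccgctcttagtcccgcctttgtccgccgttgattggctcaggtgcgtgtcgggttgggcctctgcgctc

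The Septin10/Sowahc summit had a fold enrichment of 21.9 and its stretch held 3 capital matches. Fold enrichment is the authors' ratio of (pileup + 1) to (input background + 1) at the summit, where the pileup is the height of extended tags. The summits of Ddx42/Ccdc47, Kntc1/Rsrc2, Itsn1/Cryzl1 and Polr1d/Lnx2 had fold enrichments of 17.8, 17.1, 16.25 and 15.5, and their stretches held 1, 4, 4 and 0 matches. A strong summit thus also stood on a stretch without either set of letters, that of Polr1d/Lnx2, which held 2 matches to CCAAT. Ddx42 encodes an RNA helicase, Kntc1 a kinetochore protein, Itsn1 an endocytic scaffold and Polr1d a subunit of RNA polymerases I and III. The 2 strongest where a start follows the 3′ end of another gene are these:
Ifrd2/Hyal3 (chr9:107587468-107587717, plus strand): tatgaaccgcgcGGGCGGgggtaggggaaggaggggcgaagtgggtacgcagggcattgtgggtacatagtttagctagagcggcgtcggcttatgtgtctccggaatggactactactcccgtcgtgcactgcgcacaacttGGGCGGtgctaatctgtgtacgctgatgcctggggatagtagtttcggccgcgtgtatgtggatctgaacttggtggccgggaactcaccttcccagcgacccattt
Qrich1/Impdh2 (chr9:108560186-108560435, plus strand): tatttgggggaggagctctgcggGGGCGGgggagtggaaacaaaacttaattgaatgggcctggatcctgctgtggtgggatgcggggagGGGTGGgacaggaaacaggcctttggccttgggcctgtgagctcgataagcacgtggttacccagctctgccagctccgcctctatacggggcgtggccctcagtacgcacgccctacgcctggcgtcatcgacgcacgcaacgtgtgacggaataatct

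Ifrd2/Hyal3 had a fold enrichment of 17.5 and Qrich1/Impdh2, next to a gene of guanine nucleotide synthesis, had 15.3, and each stretch held 2 matches. The last set holds the pairs of a list of well-known neighbours (described further on) whose summit lay outside genes:
Hadhb/Hadha (chr5:30155003-30155252, plus strand): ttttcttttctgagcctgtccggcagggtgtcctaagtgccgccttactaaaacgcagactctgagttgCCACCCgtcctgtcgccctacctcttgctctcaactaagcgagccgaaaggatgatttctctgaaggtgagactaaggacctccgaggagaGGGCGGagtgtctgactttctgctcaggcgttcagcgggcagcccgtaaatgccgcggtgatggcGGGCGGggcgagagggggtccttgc
Tap1/Psmb9 (chr17:34187331-34187555, plus strand): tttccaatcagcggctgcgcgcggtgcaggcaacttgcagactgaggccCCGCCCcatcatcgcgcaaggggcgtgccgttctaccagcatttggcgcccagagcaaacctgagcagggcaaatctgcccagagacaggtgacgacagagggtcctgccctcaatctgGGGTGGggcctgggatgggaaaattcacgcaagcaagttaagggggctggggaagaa
Gart/Son (chr16:91646973-91647222, minus strand): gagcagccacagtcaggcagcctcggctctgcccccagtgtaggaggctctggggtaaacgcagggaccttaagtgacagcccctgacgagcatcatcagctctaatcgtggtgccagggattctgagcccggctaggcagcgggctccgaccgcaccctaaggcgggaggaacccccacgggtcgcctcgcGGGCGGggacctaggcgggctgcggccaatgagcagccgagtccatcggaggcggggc

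Hadha and Hadhb, which encode the subunits of the mitochondrial trifunctional protein of fatty acid oxidation, shared a summit with a fold enrichment of 11.96. The summit between Tap1 and Psmb9, antigen-processing genes, had 5.71 and that between Gart, a purine synthesis gene, and Son, a splicing cofactor gene, had 5.65. Their stretches held 3, 2 and 1 matches. In all, 210 shared summits lay on such a stretch of at least 60 bases, and 166 of the stretches held at least 1 match. Such stretches were not counted at other summits, so this count has no like share beside it. Whole promoter windows of 300 bases had GGGCGG alone in 80.1% of cases where they held a summit at 1 gene, and in 47.3% of all cases.

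Most shared summits stood at starts. The strand of both of the nearest genes was given for 1279 of the 1740 summits, and the other 461 are left unclassed. All genes of chromosome 18 are among those without a strand, so that chromosome enters no count by class. Of those with both strands, 863 (67.5%, interval 64.8 to 70.0) lay between or beside 2 starts, 342 (26.7%, interval 24.3 to 29.3) at a start and a 3′ end, and 74 (5.79%, interval 4.57 to 7.21) at 2 3′ ends. Of the 863 at 2 starts, 836 had genes on opposite strands, the head-to-head arrangement. The other 27 had genes on the same strand with starts close to each other, such as Ang and Rnase4, ribonuclease genes that begin at 1 position. Of the 342 at a start and a 3′ end, 310 had genes on the same strand, the tandem arrangement. The other 32 had genes on opposite strands, such as 2200002D01Rik and Yif1b. Genes of the pair overlapped at 570 of the 1740 summits. Summits within reach of 3 genes numbered 34, and a single summit, at Ugt1a2/Ugt1a6a, lay 516 bp from the common 3′ end of 7 Ugt1a genes, which encode glucuronosyltransferases that share their last exons. It had a fold enrichment of 3.12 over a high input background of 19.2, and by its ends it counts among those at 2 3′ ends although the genes lie on the same strand.

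Neighbouring genes differed widely in how often they held a shared summit, according to their arrangement. There were 4704 pairs of coding genes with ends at most 2 kb apart, the pairs that a summit could join, and 34.1% of them held one. Of the 976 head-to-head pairs, 744 did (76.2%, interval 73.4 to 78.9). Of the 953 pairs with a start and a 3′ end nearest, 316 did (33.2%, interval 30.2 to 36.3). Of the 1079 pairs with 2 3′ ends nearest, 98 did (9.08%, interval 7.44 to 11.0). Only the head-to-head pairs were limited by strand. Same-strand genes with a common 3′ end, such as the Ugt1a genes, thus count among the 1079, and 1 summit can count for several of their pairs. Head-to-head pairs with starts at most 100 bp apart held a shared summit in 317 of 365 cases, those over 100 and up to 300 bp apart in 226 of 276 and those over 300 and up to 1000 bp apart in 188 of 231, which are 86.8%, 81.9% and 81.4%. Beyond 1000 bp the share was 12.5%. The stretch within 1 kb of both starts shrinks with their distance, so this value is partly set by the rule. Such wide pairs were 104 of the head-to-head ones, 416 of those with a start and a 3′ end and 328 with 2 3′ ends. The shares over all distances are therefore not compared like for like. In the same steps up to 1000 bp, pairs with a start and a 3′ end held one in 45.1%, 63.3% and 52.8%. For pairs with 2 3′ ends it was 20.8%, 9.62% and 6.86%.

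**Figure D1:**
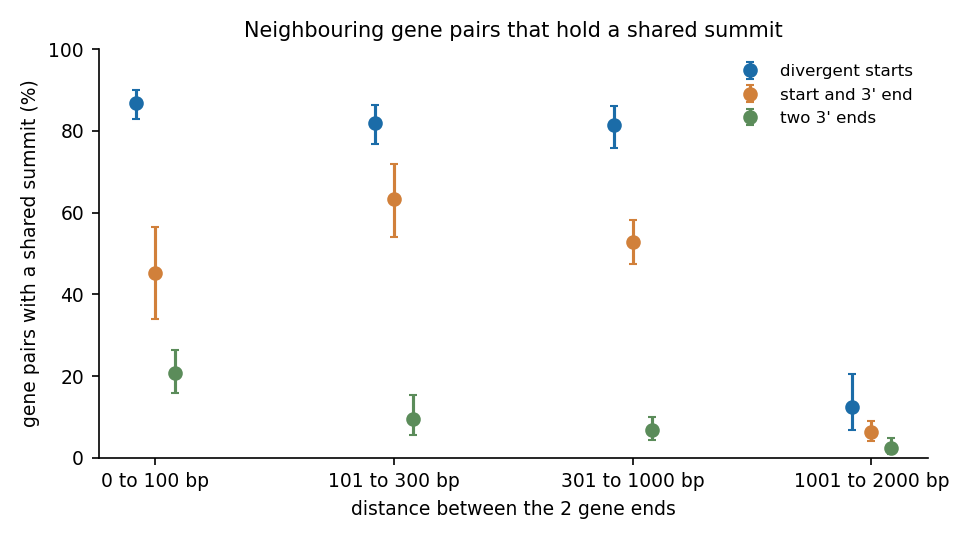
Neighbouring gene pairs with a shared V5-KLF5 summit (percent, y axis) by the distance between their nearest ends in bp (x axis). Classes are divergent starts on opposite strands and, on either strand, a start with a 3′ end and 2 3′ ends. Bars are exact 95% intervals. At every distance up to 1000 bp divergent pairs lie highest, between 81.4% and 86.8%, and pairs of 3′ ends lowest, at 6.86% to 20.8%.

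Single ends were also counted, each in a window of 1 kb on either side. Where another end lies within 2 kb the windows of both overlap, and 1 summit can count for both, so ends with a neighbour and isolated ends are not compared like for like. Of all 41330 coding gene ends, 28.9% had a summit within 1 kb. Among genes with a strand given, 49.8% of the 16457 starts and 8.23% of the 16457 3′ ends had one. A start beside a divergent start had a summit in 1559 of 1917 cases (81.3%, interval 79.5 to 83.1), and a start with no other end within 2 kb in 5789 of 13134 (44.1%, interval 43.2 to 44.9). A start that followed the 3′ end of a gene on the same strand stood between them at 57.9% (interval 54.5 to 61.3). The share was 57.5% (interval 50.3 to 64.4) where the divergent start was over 1000 and up to 2000 bp away. Without the large families of olfactory, vomeronasal and trace amine receptor genes, isolated starts had a summit in 48.7% of cases and divergent starts in 81.4%. The 3′ ends showed a smaller spread when no start was near. Those facing another 3′ end had a summit in 9.96% of cases (interval 8.68 to 11.4) and isolated ones in 5.31% (interval 4.93 to 5.71). A 3′ end beside a start had one in 36.5%.

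**Figure D2:**
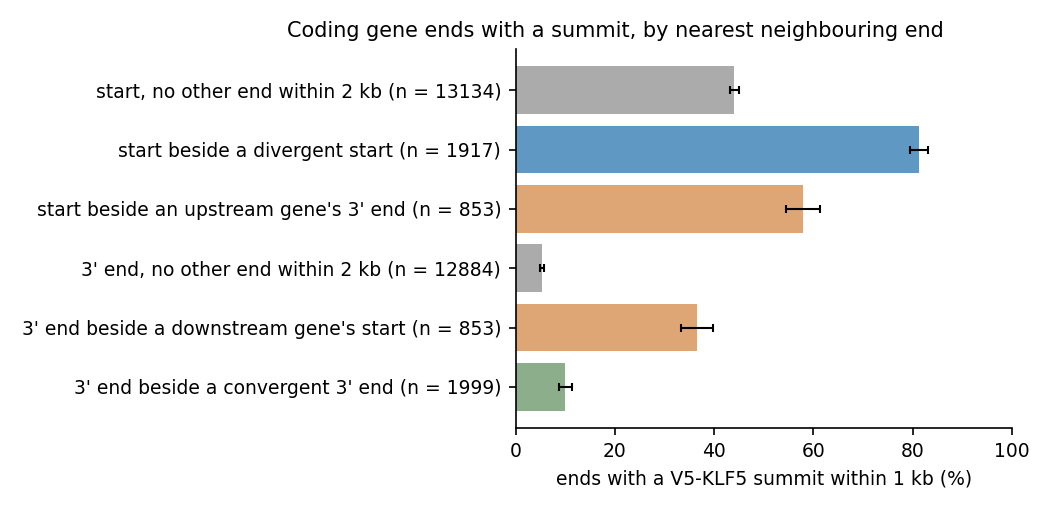
Coding gene ends on chromosomes 1 to 19 with a V5-KLF5 summit within 1 kb (percent, x axis), by the kind of the nearest other gene's end within 2 kb; bars give shares and lines exact 95% intervals. Starts beside a divergent start reach 81.3% against 44.1% of isolated starts, and isolated 3′ ends are lowest at 5.31%.

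In strength the shared summits were close to other summits at gene ends. Their median fold enrichment was 5.79 (interval 5.61 to 5.94), with quartiles of 4.36 and 8.30 and a range of 2.19 to 53.1. Summits at the ends of 1 gene had a median of 5.58 (interval 5.40 to 5.61), and summits away from coding gene ends had 5.12. A fold enrichment of at least 10 was reached by 280 shared summits, 16.1% (interval 14.4 to 17.9), against 13.0% of all summits on these chromosomes and 14.3% (interval 13.6 to 15.0) of those at 1 gene. The intervals of the last comparison overlap. The median pileup was 28, against 26 at 1 gene and 23 away from ends, and the median peak length was 549 bp, against 506 and 405 bp. The input background, in pileup units, moved along with them. Its median was 3.83 under shared summits and 3.45 under both other sets, and 75.7% of shared summits stood above the genome-wide background, against 63.7% and 60.9%. Its part in these values was not tested.

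Median strength differed more between starts and 3′ ends than between 1 gene and several. Shared summits at 2 starts had a median fold enrichment of 5.86 (interval 5.69 to 6.10), and summits at the start of 1 gene had 5.61 (interval 5.59 to 5.71). Those at a start and a 3′ end had 5.77 (interval 5.19 to 6.00). Those at 2 3′ ends had 5.03 (interval 4.56 to 5.86), and summits at a single 3′ end had 4.76 (interval 4.64 to 4.93). A fold enrichment of at least 10 was seen at 150 of 863 summits at 2 starts (17.4%, interval 14.9 to 20.1) and at 3 of 74 at 2 3′ ends (4.05%, interval 0.844 to 11.4). At 1 gene it was seen at 14.7% of summits at the start (interval 13.9 to 15.55) and 11.8% at the 3′ end (interval 9.70 to 14.1). In this share, unlike the medians, 1 and 2 3′ ends were further apart than the start and 3′ end of 1 gene. The intervals at 1 and 2 3′ ends overlap. Among head-to-head summits the medians were 5.86, 6.06 and 5.77 for starts up to 100, up to 300 and up to 1000 bp apart, within each other's intervals.

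**Figure D3:**
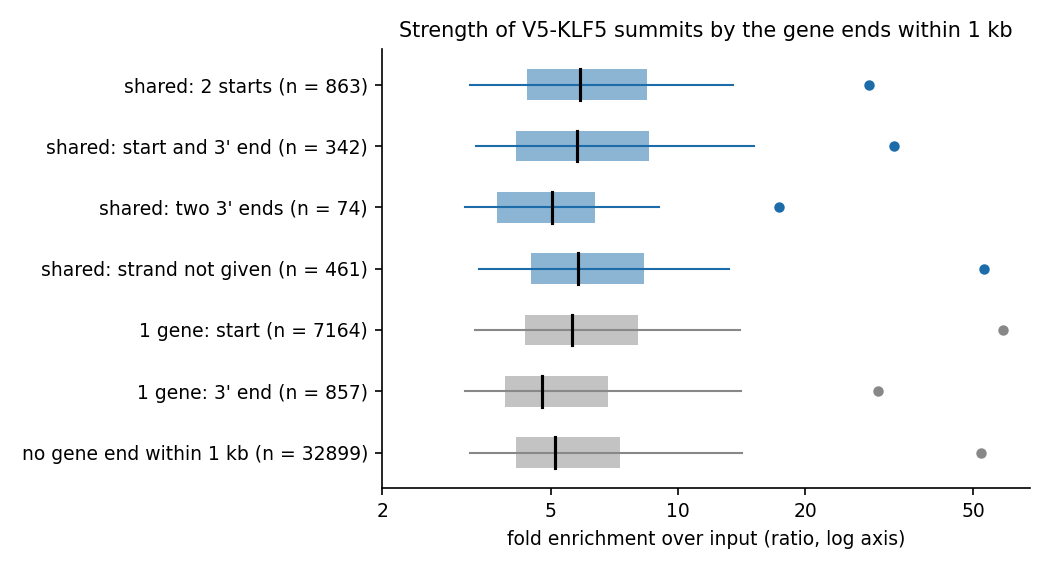
Fold enrichment over input (ratio, log x axis) of V5-KLF5 summits by the coding gene ends within 1 kb; boxes span the quartiles, black lines are medians, thin lines run from the 5th to the 95th percentile and dots mark the strongest summit. The boxes overlap widely, with medians from 4.76 at a single 3′ end to 5.86 at 2 starts.

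The strongest shared summits are described by their genes. The highest, with a fold enrichment of 53.1 and a pileup of 225, lay 191 bp from an end of Ctnna1, which encodes alpha-catenin. It counts as shared through the gene model Gm46617, whose end was 995 bp away, just within the limit. The next, on chromosome 14 at 70634252 to 70636347, stood 268 bp from Dmtn, which encodes the actin-bundling protein dematin, and 423 bp from Fgf17, an FGF ligand gene, with a fold enrichment of 39.7. A second shared summit of that pair had only 3.89. The zinc-finger genes Zfp28 and Zfp78 follow each other on chromosome 7, and their summit (peak from 6382980 to 6383803) lay 100 bp inside Zfp28 and 700 bp beyond Zfp78, with a fold enrichment of 32.5. Shoc2, a scaffold of RAS and MAPK signalling, and Bbip1, a BBSome subunit, are head to head and overlap by 396 bp on chromosome 19. Their summit (peak from 53943660 to 53945043) lay 171 bp before the start of Shoc2, inside Bbip1, with 28.3.

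Further members of the 10 strongest lay at divergent starts. Arv1 and Ttc13 on chromosome 8 start 15 bp apart on opposite strands, and their summit lay 106 bp inside Arv1 with 22.7. Septin10, a cytoskeletal GTPase gene, and Sowahc start 422 bp apart on chromosome 10 with the summit between them, 149 and 273 bp away. Also among the 10 were 2200002D01Rik/Yif1b with 25.7 and Nradd/Nbeal2 with 24.4, both at the start of 1 gene and the 3′ end of the other.

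The strongest at a start and a 3′ end beyond these were Abtb1/Podxl2 on chromosome 6 and Pygo2/Shc1 on chromosome 3. The summit 374 bp inside Abtb1 was enriched 21.6-fold, and that of Pygo2/Shc1 had 20.0. Pygo2 encodes a cofactor of WNT target transcription and Shc1 an adaptor of receptor tyrosine kinases. At 2 starts the next were Ang/Rnase4 with 21.1 and 2810408A11Rik/Neurl4 with 20.3. The strongest at 2 3′ ends was Chchd10/Gm867 on chromosome 10, at 17.4 (peak from 75937812 to 75938358). It was followed by Ccnd3/Bysl on chromosome 17 (47599882 to 47600453), with 14.4. Ccnd3 encodes cyclin D3 and Bysl a ribosome assembly factor; their 3′ ends overlap by 359 bp, and the summit lay inside Bysl, beyond the end of Ccnd3. Hrc/Ppfia3 had 11.0, Prr7/Dbn1 9.03 and Trp53i13/Git1 8.99. The weakest shared summits were Supt6/Sdf2, Ccdc115/Imp4 and Slc35b2/Hsp90ab1, with 2.19, 2.38 and 2.42.

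Where ends of different kinds were available, the summit was usually nearer to the start. Of 341 summits at a start and a 3′ end with unequal distances, 282 (82.7%, interval 78.3 to 86.6) were nearer to the start. At head-to-head pairs without overlap, 137 of 534 summits (25.7%, interval 22.0 to 29.6) lay between the starts and 400 lay inside 1 of the genes. Start bases belong to both counts, and 3 summits stood on one. For starts at most 100 bp apart 22 of 280 lay between them, at a median of 102 bp from the nearer start over all 280. For starts over 100 and up to 300 bp apart 67 of 165 did (40.6%, interval 33.0 to 48.5), and for those up to 1000 bp apart 45 of 86 (52.3%, interval 41.3 to 63.2). Where divergent genes overlapped at their starts, 100 of 302 summits (33.1%) lay inside the overlap.

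Over all head-to-head summits the median position was 24 bp inside the nearer gene, with quartiles of -50.2 and 146 bp (negative values lie before the start). Summits at the start of 1 gene had a median of 31 bp inside, with quartiles of -107 and 300 bp. A summit with 2 starts within 1 kb is measured to the nearer of them, which by itself narrows the spread. Likewise, 1136 of the 1740 shared summits (65.3%) lay within 200 bp of the nearer end, and 519 within 200 bp of both. Of the 10121 summits at 1 gene, 4894 (48.35%) lay within 200 bp of its end. Here too, the choice of the nearer end favours the shared summits.

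**Figure D4:**
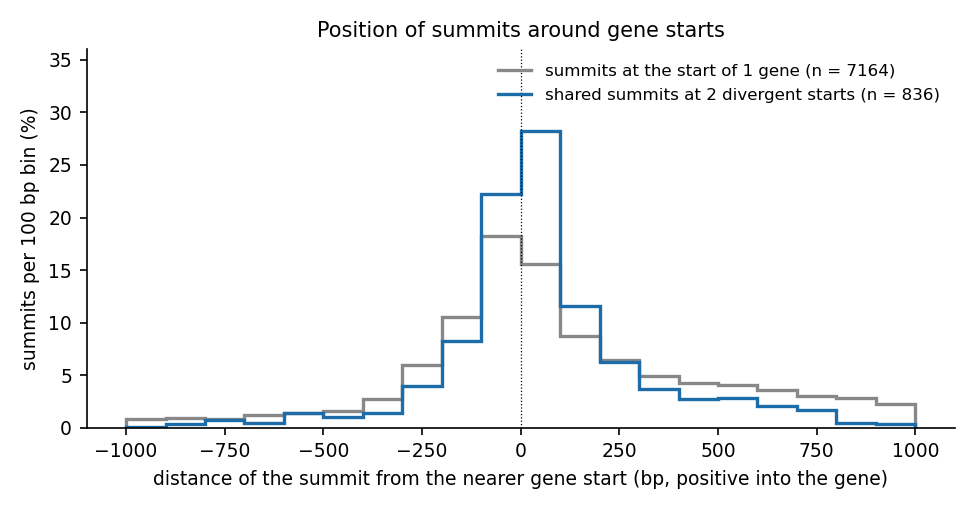
Distance of V5-KLF5 summits from the nearer gene start (bp, x axis, positive into the gene) as the percent of summits in bins of 100 bp (y axis), for shared summits at 2 divergent starts on opposite strands and summits at the start of 1 gene. Both gather within 100 bp of the start, the shared ones with a narrower spread, which the choice of the nearer of 2 starts favours.

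The DNA at the shared summits was rich in GC-box letters. Promoter windows of 300 bases were compared, 1 window per gene, with each motif searched on both strands. Of the 534 windows that held a head-to-head summit, 411 had GGGCGG (77.0%, interval 73.2 to 80.5), against 80.1% (interval 78.7 to 81.5) of the 3228 windows that held a summit at 1 gene and 47.3% of all 16457 windows. GGGTGG was found in 38.0% (interval 33.9 to 42.3), against 40.7% at 1 gene and 33.2% of all. The nearest GGGCGG lay a median of 33 bp from the head-to-head summit in the 411 windows that had one, and 63.3% of these lay within 50 bp. The median was 29 bp at 1 gene and 27 bp at tandem summits, with 67.7% and 67.2% within 50 bp, so the head-to-head summits were no closer to these letters. For GGGTGG, in 203 windows, the median was 68 bp. The KLF-like pattern GGGNGNGG, searched after the values of the others were seen, was in 76.2% of head-to-head windows, 82.5% of those at 1 gene and 56.7% of all. It overlaps with GGGCGG. Among head-to-head windows GGGCGG was in 80.0% (interval 71.3 to 87.0) where the fold enrichment was at least 10 and in 76.2% (interval 71.8 to 80.2) where it was lower, and these intervals overlap. GGGNGNGG was in 88.2% (interval 80.6 to 93.55) and 73.1% (interval 68.6 to 77.3). Windows with a summit at 1 gene had a like difference in GGGNGNGG, with 92.0% and 80.3%.

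Base composition moved with these shares. The median GC content was 64.0% in windows with a head-to-head summit, 63.0% in windows with a summit at 1 gene and 49.0% in the 7844 windows without a summit within 1 kb of the start. The observed to expected CpG ratio had medians of 0.856, 0.781 and 0.234. Its part in the motif shares was not tested.

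Of the motifs searched, CCGGAAG differed by the most percentage points between head-to-head windows and windows with a summit at 1 gene. CCGGAAG, the core of sites for ETS factors, was in 177 of 534 (33.1%, interval 29.2 to 37.3), against 19.4% (interval 18.1 to 20.8) at 1 gene, 24.2% (interval 17.5 to 31.9) at tandem summits and 12.3% of all windows. In the central 100 bases of the window it was in 10.5% (interval 8.02 to 13.4) and 6.13% (interval 5.33 to 7.02) of the first 2 sets. Those bases lie before the gene start and are not centred on the summit. CCAAT, the core of NF-Y sites, was at about the same share in every set, with 37.5% at head-to-head summits, 38.5% at 1 gene and 39.1% of all. TATAAA was in 3.56% (interval 2.16 to 5.501), against 5.98% (interval 5.19 to 6.85) at 1 gene and 13.5% of all. The palindromic NRF1 pattern was in 3.00%, TGACGTCA, the CREB pattern, in 3.93%, and the long YY1 pattern in 2.81%, against 1.37%, 2.40% and 0.990% of all windows. For these 3 the intervals at head-to-head summits and at 1 gene overlap. These are matches of letters, and a head-to-head window can hold the start regions of both genes.

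The share of genes with a shared summit was counted in lists of core cellular machinery. Among all coding genes 14.2% had a shared summit and 52.5% had any summit within 1 kb of an end. Of 78 genes of mitochondrial ribosomal proteins, 38 had a shared summit (48.7%, interval 37.2 to 60.3). Of 47 genes named Nduf, most of which encode subunits or assembly factors of respiratory complex I, 22 had one (46.8%, interval 32.1 to 61.9). DNA repair genes had one in 14 of 35 cases (40.0%, interval 23.9 to 57.9), DNA replication genes in 10 of 36 (27.8%, interval 14.2 to 45.2), cytosolic ribosomal protein genes in 20 of 76 (26.3%, interval 16.9 to 37.7) and proteasome genes in 13 of 50 (26.0%, interval 14.6 to 40.3). The lower bounds for replication and proteasome genes are close to the share of all genes. Close neighbours were also more common in the leading lists. Another coding gene's end lay within 2 kb for 64.1% of the mitochondrial ribosomal protein genes, 68.1% of the complex I genes and 77.1% of the repair genes, against 33.2% of all coding genes. Among genes with such a neighbour, 42.8% of all coding genes had a shared summit. The share was 76.0% for mitochondrial ribosomal protein genes (38 of 50) and 68.8% for complex I genes (22 of 32). It was nearer to that of all genes for cytosolic ribosomal protein genes (20 of 38, 52.6%), DNA repair genes (14 of 27, 51.9%), proteasome genes (13 of 27, 48.1%) and DNA replication genes (10 of 21, 47.6%). The 42.8% pools all arrangements of neighbours, while head-to-head pairs, counted by pair, held a shared summit in 76.2% of cases. The lists were not split by arrangement, so its part in their shares was not tested.

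**Figure D5:**
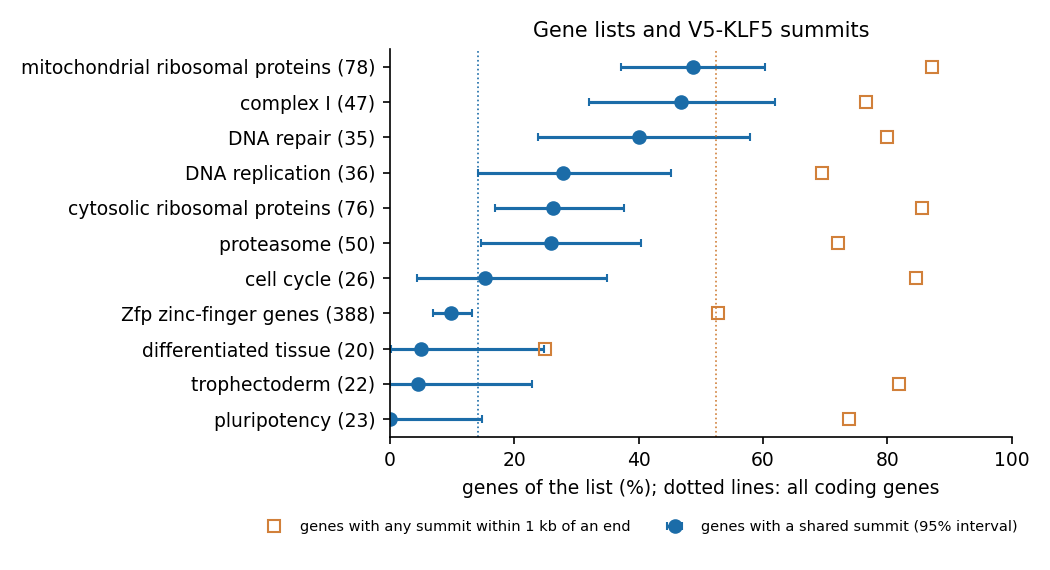
Share of the genes of each list (percent, x axis; number of genes in brackets) with a shared V5-KLF5 summit (dots, exact 95% intervals) and with any summit within 1 kb of an end (squares); dotted lines are the shares of all coding genes. Mitochondrial ribosomal protein genes lead the shared summits with 48.7%, while pluripotency genes have 0% shared beside 73.9% with any summit.

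The lists of lineage genes of the early embryo are small, and their intervals include the 14.2% of all coding genes. None of the 23 pluripotency genes, Pou5f1, Sox2 and Nanog among them, had a shared summit (interval 0 to 14.8%), although 17 of them had a summit within 1 kb of an end. Only 2 had another coding gene's end within 2 kb. Of the 22 trophectoderm genes, 18 had a summit at an end and 1 shared it (interval 0.115 to 22.8%), with 3 close to another coding gene. That was Cldn7, a claudin gene of epithelial junctions, whose summit, enriched 7.08-fold, was 552 bp from its 3′ end and 890 bp from that of Elp5. Of 20 genes of differentiated tissues, 5 had a summit at an end and 1 shared it, the T-cell co-receptor gene Cd4, with 4.15 at Gpr162/Cd4. Cell cycle genes had a shared summit in 4 of 26 cases, and Zfp genes in 38 of 388 (9.79%, interval 7.02 to 13.2). Only 20.4% of the Zfp genes had another coding gene's end within 2 kb, against 33.2% of all coding genes. Among the 79 Zfp genes with such a neighbour, 38 (48.1%) had a shared summit, against 42.8% of all coding genes with one. The lower share of the whole Zfp list thus did not hold among genes with a close neighbour.

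The lists were also described by their strongest shared summits. For 19.0% of the 2936 genes with a shared summit the strongest reached a fold enrichment of 10. None of the 14 DNA repair genes and none of the 13 proteasome genes did, but these sets are small and no interval was computed for this share. The leading repair genes were Xpc of nucleotide excision repair, with 8.75 at Xpc/Lsm3, the checkpoint kinase gene Atr with 8.73, the glycosylase gene Mutyh with 8.17 at Toe1/Mutyh and the ligase gene Lig4 with 6.83. Replication was led by the polymerase epsilon genes Pole2, with 10.3 at Pole2/Klhdc1, and Pole with 9.27, then Cdc45 with 7.57 and Orc6 with 7.16. The proteasome list was led by Psmd8 with 8.76, Psma7 with 7.57, Psma2 with 6.345 and the assembly chaperone gene Psmg2 with 6.21. Mitochondrial ribosomal protein genes were led by Mrpl40, which lies head to head with the histone chaperone gene Hira, at 11.96, then Mrpl18 with 11.7, Mrpl49 with 11.3 and Mrpl13 with 10.8. Complex I genes were led by the assembly factor genes Ndufaf5 with 15.95 and Ndufaf3 with 11.6, then Ndufa5 with 11.5 and Ndufa11 with 10.8. Cytosolic ribosomal protein genes were led by Rpl12 with 14.7, Rpl35a with 12.0, Rps25 with 11.96 and Rps18 with 11.1, and in that list 25.0% of the genes with a shared summit reached 10. The summit counted for Rps18 lay 437 bp from its 3′ end and 73 bp from the start of B3galt4. At the start of Rps18, the summit shared with Vps52 had only 3.82. The cell cycle genes were Ccnd3 with 14.4, Ccna2 with 9.69, Aurka with 7.345 and E2f1 with 5.39. After Zfp28 and Zfp78, the Zfp genes were led by Zfp142 with 14.3 and Zfp408 with 12.8.

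A list of 26 neighbouring pairs known from textbooks and earlier work was read pair by pair. It was drawn up because the genes are neighbours, and its shares support nothing further. All 26 had ends at most 2 kb apart, with a median of 144 bp, and 18 held a shared summit, with a median fold enrichment of 5.71 for the strongest. The strongest was at Hspd1/Hspe1 on chromosome 1 (from 55087491 to 55088692), the mitochondrial chaperonin genes HSP60 and HSP10, with 17.8 and a pileup of 85. Ranbp1/Trmt2a had 13.4, Hadha/Hadhb 11.96 and Ppat/Paics, genes of purine synthesis, 11.6. These 4 were the pairs that reached 10.

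Other pairs of that list had weaker summits. Foxm1/Rhno1, of a cell-cycle transcription factor and a checkpoint protein, had 8.30 at the stronger of 2 summits. The basement-membrane collagen genes Col4a1/Col4a2 had 6.21 and Col4a3/Col4a4 3.66. Sirt3/Psmd13 had 5.87, Tk1/Afmid 5.75, Tap1/Psmb9 5.71, Gart/Son 5.65 and Trp53/Wrap53 4.80. Poll/Dpcd had 4.15, Atm/Npat, of a DNA damage kinase and a coactivator of histone genes, 3.93, Vps52/Rps18 3.82, Brca1/Nbr1 3.23 and Mcm4/Prkdc 2.80. No shared summit was called at Surf1/Surf2, Tbp/Psmb1, Fen1/Tmem258, Mrps12/Sars2 or Chek2/Hscb. None was called either at the overlapping 3′ ends of Thra/Nr1d1 and of Ercc1/Cd3eap.

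The rule has a limit of 1 kb. Just inside it, with the second gene 1000 bp away, Chst10/Gm51581, Ankrd27/Rgs9bp and Bcat2/Hsd17b14 had fold enrichments of 5.38, 6.10 and 14.7. Just outside, at 1002 bp, Noc2l/Klhl17, Cops7a/Pianp and Vasp/Gm38499 had 3.17, 4.34 and 9.72. By chromosome, shared summits were 1.91% to 6.00% of all summits, lowest on chromosome 18 and highest on chromosome 7. Of the close gene pairs 32.7% to 41.1% held one on 18 of the 19 chromosomes. On chromosome 18 it was 23 of 457 pairs, of which 306 were pairs of clustered protocadherin genes, and 15.2% of the other 151 pairs there.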

How the data were processed

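Peaks were called by the authors with MACS2 2.1.0.20140616 on single libraries, with the input of the same cell line as control, per the file headers. Tags of 51 bp were extended to 250 bp, 1 tag per position was kept, and the q-value cutoff was 0.05. Bowtie 0.12.8 and mm10 are named in the submitters' processing notes. For each peak the authors deposited the pileup signal, −log10 p-values and −log10 q-values, and the fold enrichment (a ratio). These values served only to describe and rank peaks within 1 list.

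Distances were computed from summits to the ends of 20665 coding genes on chromosomes 1 to 19 (RefSeq, GRCm38.p6, the assembly mm10 names; 1-based coordinates). Strand and promoter sequence came from the RefSeq promoter table, which matched 16457 of these genes. The class of a summit follows the nearest ends of its 2 nearest genes. The input background was recovered from pileup and fold enrichment. Python 3.11.15, pandas 2.3.3 and scipy 1.17.1 were used, and the assignment of genes and classes was checked on simulated data.

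The members, the 11 gene lists and the tests were chosen with earlier results of these data known. Named were the 10 strongest shared summits, the 5 strongest per class, the 3 weakest, those at the limit, up to 4 genes per list, and the 26 known pairs; some of these are not reported here. The 5 strongest at 3 or more genes are in the closing section. Sequences were printed for the strongest summits outside genes, excluding chromosome 18. Alternatives changed the window, q-value, genes and overlap.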

Additional observations from a re-analysis of the deposited data

How the results depend on the processing

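The number of shared summits depended on the window and the q-value. It was 1093 within 500 bp, 2714 within 2000 bp and 1030 at a −log10 q of at least 10, against 1740. Their median fold enrichment was 6.03 within 500 bp, 7.74 at that q-value and 6.10 with the strongest summit of each pair; the median pileup was 28. In these settings the medians of summits at 1 gene were 5.79, 7.68, 5.58 and 26. The 5.58 covers all summits at 1 gene and not the strongest of each, so that setting is not compared like for like. With the window of 500 bp, the q-value and the pileup, the order held by small margins. Within 500 bp, 19.03% of shared summits were enriched at least 10-fold, against 15.38% of summits at 1 gene in that setting. Summits at 2 starts were 76.7% of the classed ones within 500 bp, 53.9% within 2000 bp and 62.0% without overlapping genes. Close gene pairs with a shared summit were 31.3% within 500 bp, 22.1% at a −log10 q of at least 10, 36.5% without protocadherin pairs and 37.2% without chromosome 18. With only the central 100 bp read, GGGCGG was in 39.5% of head-to-head windows (interval 35.3 to 43.8). At 1 gene it was in 47.1% (interval 45.3 to 48.8). These intervals separate, while those of the 300 bp windows overlap. The central 100 bp lie before the gene start and are not centred on the summit. Head-to-head pairs led pairs with a start and a 3′ end and pairs with 2 3′ ends in each setting. The shares were 69.0%, 30.0% and 4.26% within 500 bp and 51.9%, 20.4% and 5.38% at the stricter q-value. No paired analysis was possible because each group is 1 library. Settings that leave out protocadherin pairs, receptor genes or chromosome 18, and the pattern GGGNGNGG, were chosen after seeing the data. With 1 library, the lack of a called summit at a pair shows only that none passed the cutoff.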

Other observations

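Some gene pairs held several separate shared summits. Of the 1531 pairs, 179 had 2 and 15 had 3. In the 179 pairs the summits stood a median of 696 bp apart (176 to 1649 bp), and the median fold enrichment was 6.25 for the stronger and 3.93 for the weaker. Among the 15, Dido1/Gid8 on chromosome 2 had 14.3, 3.72 and 6.46 over 1284 bp, and 1810062G17Rik/Anxa5 on chromosome 3 had 4.15, 15.7 and 3.31 over 1348 bp, with the strongest in the middle. Trim28, which encodes a co-repressor of KRAB zinc-finger proteins, had 11.6, 10.01 and 5.37 at Gm31649/Trim28.

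Summits within reach of 3 or more genes numbered 35, with a median fold enrichment of 5.33 (interval 4.55 to 6.10). The strongest were Il4i1b/Nup62 with Atf5 at 11.8, Med20/Gm20517 with Bysl at 10.4, Anxa9/Cers2 at 10.1, Rad17/Taf9 with Ak6 at 9.95 and Senp3/Tnfsf13 at 8.69. Rad17 encodes a checkpoint clamp loader and Taf9 a TFIID subunit.

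The same rule applied to chromosome X, outside the set described above, found 19 of 600 summits (3.17%, interval 1.92 to 4.90). None of the 6 summits on chromosome Y met it.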
